A study of Rattus norvegicus with 10 samples.

Results

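The genes described here encode the machinery by which secretory and membrane proteins enter the endoplasmic reticulum (ER), are cut, folded and checked there, and are removed when they misfold. The set is a list of 43 genes named by function, each read by the probe set of its gene with the highest mean signal over all 10 arrays, among probe sets annotated with exactly 1 symbol. Such a probe set was found for 42 of the 43, out of 14217 genes read on the array, and Derl3 was not analysed here. A filter on dim probe sets, which did not look at the groups, left 41 of them among 10593 genes tested. The gene Creb3l1 was below it.

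The tissue, from male Sprague Dawley rats aged 10 to 12 weeks, was the pituitary's neurointermediate lobe. Lobes of rats dehydrated for 3 days were compared with lobes of control rats, 5 Affymetrix arrays each, and every array carried RNA of a separate pool of 5 animals. The p-values therefore refer to the spread between pools. The design text of the series names the supraoptic nucleus, while its title and all sample labels name the neurointermediate lobe, and the labels were followed. Transcripts known from the lobe were present. Pomc, the melanotroph prohormone, averaged a signal of 735 in dehydrated and 755 in control lobes. Rax, a transcription factor of pituicytes, averaged 302 in dehydrated and 344 in control lobes. Signal was also read for Gh1, a hormone gene of the anterior lobe, averaging 2521 in dehydrated and 2108 in control lobes. How much anterior lobe tissue the pools held was not measured. Signals are in the arbitrary linear units of the array software, with an equal trimmed mean on all arrays, so every change is measured against the array's overall level. Signals of different genes cannot be ranked against each other.

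A protein with a signal peptide is recognised by the signal recognition particle as it leaves the ribosome and is passed through the SEC61 channel, with the help of the translocon-associated protein complex (TRAP). Signal peptidase cuts off the signal peptide, and chaperones such as BiP and GRP94, the lectins calnexin and calreticulin and the protein disulfide isomerases fold the chain. A build-up of unfolded protein is sensed by ATF6, IRE1 and PERK, and the response includes a higher output of chaperone genes and of the degradation machinery. Melanotrophs of the intermediate lobe make large amounts of pro-opiomelanocortin by this route. The precursors of vasopressin and oxytocin, which the neural lobe releases, are translated in hypothalamic cell bodies outside the lobe.

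Few of the ER genes passed the test after dehydration, as was also the case for all genes tested. Of the 41 tested, 2 fell, Pdia3 and Ssr1, none rose and 39 did not pass (limma, adjusted p under 0.05 over all 18625 tested probe sets). Over all 10593 genes tested 3.19% passed (2.46% of all tested probe sets), 2.31% as higher and 0.878% as lower, beside 0% and 4.88% of the ER genes. At an unadjusted p under 0.05, 14 of the 41 were lower and 3 higher, which is 34.1% and 7.32%, beside 7.65% and 11.2% of all genes tested. Of the 41, 23 had a negative change (56.1%), beside 48.4% of all genes tested. The median log2 change of the 41 was -0.05, with a range of -0.49 to 0.27, beside 0.01 over all genes tested. The largest change had a 95% interval of -0.96 to -0.02 (Hyou1), and no interval of the 41 reached a 2-fold change in either direction. For 35 of the 41 the interval lay within 0.5 on the log2 scale on both sides of 0. In bulk tissue, fewer cells of a type and less RNA per cell cannot be told apart.

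These calls depended on single arrays. The number of ER genes called lower was 0 without dehydrated 3 or without control 4, 1 without dehydrated 1 or 2 or without control 1, 2, 3 or 5, 2 without dehydrated 4 and 6 without dehydrated 5. Without dehydrated 5 the 6 were Hsp90b1, Pdia3, Pdia4, Sec61a1, Ssr1 and Ssr4, and Canx and Spcs1 were called higher. Dehydrated 5 and control 1 were the arrays of their groups whose RNA integrity lay furthest towards the other group. A measure of it is the log2 ratio of 3' over 5' signal for the Gapdh and beta-actin control probe sets, which increases as RNA is shortened. Averaged over both genes it was 2.27, 2.67, 2.15, 2.05 and 1.61 on the dehydrated arrays 1 to 5, against 2.52, 1.68, 1.51, 1.91 and 1.26 on the control arrays 1 to 5 (2.15 ± 0.38 in dehydrated and 1.78 ± 0.48 in control lobes, SD, n = 5 each, exact two-sided permutation p = 0.214). Without both arrays 8 of the ER genes were lower and 2 higher, the further ones being Ssr2 and Spcs2, and the number of all probe sets called was 1398 in place of 458. The ratio then separated the groups, at 2.05 to 2.67 on the dehydrated and 1.26 to 1.91 on the control arrays. Choosing the arrays to leave out by their ratio sets that separation in part. In that comparison RNA integrity and dehydration cannot be told apart. When the model on all 10 arrays included this ratio, Pdia3 alone of the 41 passed, with a change of -0.35 in place of -0.32. The median change of the 41 was -0.06 in that model and -0.05 without the ratio. Some changes shrank, such as Hsp90b1 from -0.28 to -0.13 and Sec61a1 from -0.29 to -0.12. Others did not, such as Hspa5 from -0.17 to -0.18 and Dnajb9 from -0.24 to -0.28.

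**Figure D1:**
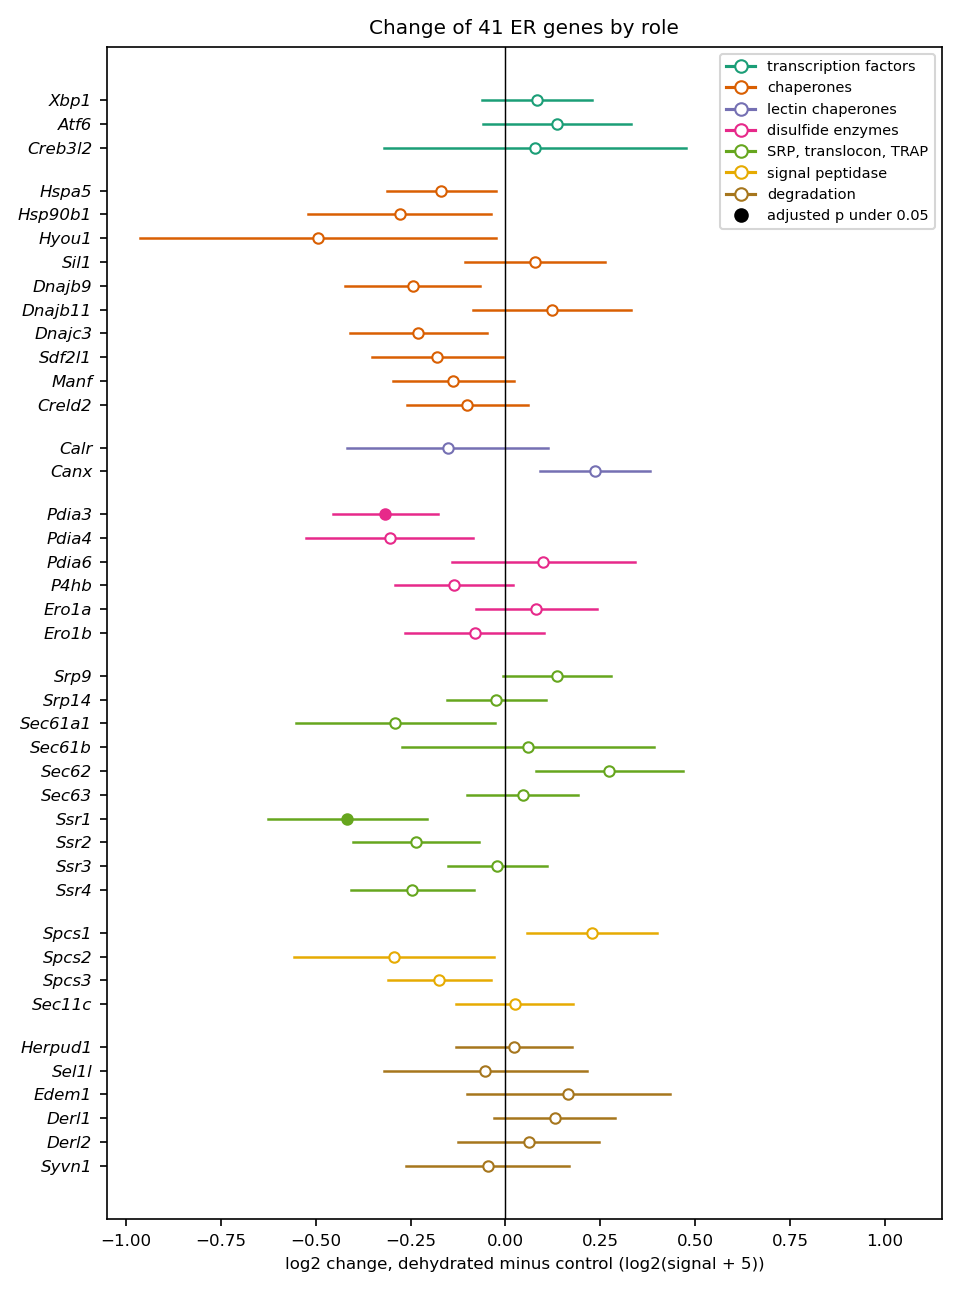
Log2 change of the 41 tested ER genes, dehydrated minus control, on the log2(signal + 5) scale, with 95% intervals from limma (5 arrays per group), coloured by role; filled points passed an adjusted p of 0.05. Only Pdia3 (-0.32) and Ssr1 (-0.42) are filled, and 8 of 10 chaperones lie left of 0.

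The transcription factors that switch on ER genes did not pass. The active form of XBP1 is made after IRE1 splices its mRNA, a step that a probe set's signal does not report. Xbp1 had signals of 1302, 1299, 1218, 1313 and 1160.4 on the dehydrated arrays, against 1274, 1052, 1230, 1202 and 1185 on the control arrays. The groups overlapped (log2 change 0.08 ± 0.07 SE, adjusted p = 0.569, limma), with an interval of -0.06 to 0.23. ATF6 is a membrane-bound factor released by proteolysis in the Golgi. Atf6 had signals of 309, 342, 332, 261 and 266 on the dehydrated arrays, against 275, 257, 271, 312 and 253 on the control arrays, and dehydrated 1, 2 and 3 were the high ones of their group (log2 change 0.14 ± 0.09 SE, adjusted p = 0.477, limma). CREB3L1 and CREB3L2 are factors of the same membrane-bound kind, and the first of them is known in vasopressin neurons of the rat hypothalamus. Creb3l1 was dim, with signals of 18.2, 36.7, 13.2, 7.60 and 24.5 on the dehydrated arrays, against 25.8, 22.7, 21.9, 20.5 and 10.1 on the control arrays, and was not tested. Creb3l2 had signals of 29.5, 45, 38.6, 29.5 and 19.7 on the dehydrated arrays, against 26.3, 24.9, 33, 34.2 and 30.1 on the control arrays, and its groups overlapped (log2 change 0.08 ± 0.19 SE, adjusted p = 0.875, limma). Its change was -0.03 in the model that included the RNA integrity ratio.

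Many ER genes share a promoter element that ATF6, together with the CCAAT-binding factor NF-Y, and XBP1 are known to bind. RefSeq promoter windows of assembly GRCr8 (250 bases before to 50 after the annotated start) were found for 36 of the 43 genes, and not for Atf6, Manf, Pdia3, Pdia6, Ero1a, Sec61a1 and Derl1. The ER stress element (ERSE), the letters CCAAT and CCACG with 9 bases of any kind between them, on either strand, was in the windows of 9 of the 36, which is 25% of them, beside 21 of 27457 genes with a window (0.0765%). The second form (ERSE-II), ATTGG and CCACG with 1 base between them, on either strand, was in 3 of the 36 (8.33%), beside 17 of all (0.0619%). Together 12 genes held 14 elements. Since the elements were already known from ER genes, these shares describe the list and are no test of it. The sites are shown because the element is rare among all promoter windows, with the fixed letters in capitals and the spacer in lower case, each read 5′ to 3′ on the strand named:
Calr (ERSE, chr19:40213135-40213153, minus strand): CCAATcagggtcgaCCACG
Canx (ERSE, chr10:35158069-35158087, minus strand): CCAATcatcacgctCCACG
Creld2 (ERSE, chr7:121789239-121789257, minus strand): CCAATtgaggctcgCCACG
Derl3 (ERSE, chr20:12766601-12766619, plus strand): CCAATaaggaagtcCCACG
Dnajc3 (ERSE, chr15:102432534-102432552, plus strand): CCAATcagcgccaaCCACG
Ero1b (ERSE, chr17:92941458-92941476, minus strand): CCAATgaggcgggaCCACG
Hsp90b1 (ERSE, chr7:23012347-23012365, plus strand): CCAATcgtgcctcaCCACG
Hsp90b1 (ERSE, chr7:23012451-23012469, minus strand): CCAATcgaaaggagCCACG
Hspa5 (ERSE, chr3:38452973-38452991, plus strand): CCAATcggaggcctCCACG
Xbp1 (ERSE, chr14:84604558-84604576, plus strand): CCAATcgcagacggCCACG
Dnajb11 (ERSE-II, chr11:91672800-91672810, minus strand): ATTGGcCCACG
Herpud1 (ERSE-II, chr19:10614821-10614831, minus strand): ATTGGgCCACG
Hyou1 (ERSE-II, chr8:53602694-53602704, minus strand): ATTGGcCCACG
Hyou1 (ERSE-II, chr8:53602794-53602804, minus strand): ATTGGgCCACG

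In Hspa5, the gene of BiP, the element lies close to the start site. Its window (GRCr8, chr3:38452766-38453065, plus strand) is shown whole, with the fixed letters of the full ERSE match in capitals:
Hspa5 promoter: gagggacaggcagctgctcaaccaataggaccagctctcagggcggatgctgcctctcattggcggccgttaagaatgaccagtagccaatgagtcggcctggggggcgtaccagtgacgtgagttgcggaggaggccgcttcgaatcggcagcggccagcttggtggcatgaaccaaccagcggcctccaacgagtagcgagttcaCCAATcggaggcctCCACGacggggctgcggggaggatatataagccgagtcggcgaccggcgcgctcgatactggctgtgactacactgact

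The UPRE motif, TGACG followed by TGG, which XBP1 binds and which read on the other strand begins with the CCACG of an ERSE, was searched on both strands too. It was in the window of Hyou1 alone of the 36 (2.78%), beside 187 of all genes with a window (0.681%). That match (chr8:53602691-53602698, plus strand) overlaps the Hyou1 ERSE-II at chr8:53602694-53602704 and shares its CCACG. A match is a description of letters, and binding in this tissue was not measured. Of the 12 genes with either element, 11 were tested and none passed (limma), while 4 were lower and 1 higher at an unadjusted p under 0.05, with log2 changes of -0.49 to 0.23 and a median of -0.10. Of the 23 tested genes whose window held neither, Ssr1 passed, and 8 were lower and 2 higher at an unadjusted p under 0.05. Their changes ran from -0.42 to 0.27 with a median of -0.02. Of all genes tested, 7.65% were lower and 11.2% higher at that threshold. Among genes outside the set, 12 held an ERSE. Of these, 7 were tested, none passed and none had an unadjusted p under 0.05, with changes of -0.12 to 0.15. An ERSE-II was held by 14 genes outside the set, of which 7 were tested and none passed (limma). Their changes ran from -0.29 to 0.25, and 1 had an unadjusted p under 0.05, Nucb1 at -0.29, named after its value was seen.

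**Figure D2:**
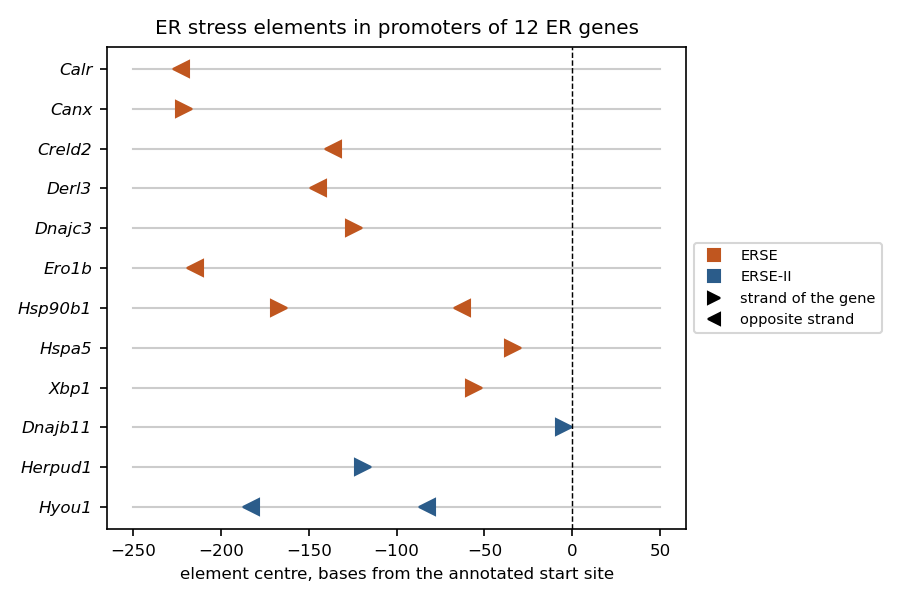
Position of each element's centre in bases from the annotated start site (dashed line) in the 12 promoter windows that held one, by kind of element (colour), with triangles pointing right where the letters are on the gene's strand and left where they are on the opposite one. Of the 14 elements all lie before the start site, from Calr at -223 to Dnajb11 at -5, and Hsp90b1 and Hyou1 hold 2 each.

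Of 10 chaperones and their partners none passed, and 6 had an unadjusted p under 0.05, all lower (limma). Of all genes tested, 7.65% were lower at that threshold. The median log2 change of the 10 was -0.17, and 8 were negative. Hspa5, which encodes the ER's main Hsp70, BiP, had signals of 2703, 2631, 2372, 2339 and 2375 on the dehydrated arrays, against 2798, 2616, 2916, 2686 and 2938 on the control arrays. Dehydrated 3, 4 and 5 lay below every control array, and dehydrated 1 and 2 lay within the control range (log2 change -0.17 ± 0.07 SE, adjusted p = 0.209, limma). Its interval was -0.31 to -0.03. The change was -0.34 with quantile and -0.32 with cyclic loess normalization, and both passed (adjusted p = 0.00301 and 0.00567), while it was -0.15 with each array centred on its median (adjusted p = 0.306, limma).

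Hsp90b1, which encodes the ER's Hsp90, GRP94, had signals of 998, 755, 1017, 1154 and 1333 on the dehydrated arrays, against 1137, 1204, 1305, 1289 and 1353 on the control arrays. Dehydrated 1, 2 and 3 were lower than every control array, and dehydrated 5 was higher than 4 of the 5 (log2 change -0.28 ± 0.11 SE, adjusted p = 0.221, limma). Without dehydrated 5 the change was -0.37 and passed (adjusted p = 0.0371), while in the model with the integrity ratio it was -0.13 (adjusted p = 0.616, limma). Hyou1, a large Hsp70 relative that acts with BiP, had the lowest estimate of the set, with signals of 55.9, 82.1, 67.7, 107 and 114 on the dehydrated arrays, against 142, 62, 126, 131 and 158 on the control arrays. Control 2, at 62, fell among the dehydrated arrays, and the groups overlapped (log2 change -0.49 ± 0.22 SE, adjusted p = 0.264, limma).

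Dnajb9, a BiP co-chaperone also called ERdj4, had signals of 889, 697, 722, 759 and 651 on the dehydrated arrays, against 861, 849, 918, 967 and 799 on the control arrays. All dehydrated arrays other than dehydrated 1 lay below the control arrays (log2 change -0.24 ± 0.08 SE, adjusted p = 0.145, limma). Manf, a secreted protein of the ER stress response that interacts with BiP, had signals of 632, 624, 692, 674 and 731 on the dehydrated arrays, against 746, 643, 722, 768 and 816 on the control arrays, and the groups overlapped (log2 change -0.14 ± 0.08 SE, adjusted p = 0.371, limma). Among the rest, Dnajc3, a co-chaperone known as p58IPK, changed by -0.23, Sdf2l1, a partner of Dnajb11, by -0.18 and Creld2, an ER stress-induced protein, by -0.10. Sil1, the nucleotide exchange factor of BiP, and Dnajb11, another BiP co-chaperone, were on the other side of 0, at 0.08 and 0.12. Their adjusted p-values lay between 0.177 and 0.691 (limma).

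Calreticulin and calnexin hold glycoproteins through their sugar chains while they fold. Calr had signals of 457, 469, 465, 543 and 613 on the dehydrated arrays, against 567, 469.8, 639, 448 and 741 on the control arrays, with a wide spread in the control group (log2 change -0.15 ± 0.12 SE, adjusted p = 0.570, limma). Its change was -0.03 in the model with the integrity ratio. Canx, described because its groups did not overlap, had signals of 1462, 1404, 1650, 1448 and 1361 on the dehydrated arrays, against 1297, 1281, 1180, 1286 and 1169.8 on the control arrays. Every dehydrated array was above every control array, yet the change did not pass (log2 change 0.23 ± 0.07 SE, adjusted p = 0.0810, limma). It was 0.15 with quantile and 0.14 with cyclic loess normalization, and -0.11 when the gene's probe sets were averaged. Among all genes tested, 5.73% did not overlap between the groups and 3.90% did so in the higher direction, beside 1 of the 41 ER genes (2.44%). Its second probe set read the other way, as given below with the other genes read more than once.

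The protein disulfide isomerases form and shuffle disulfide bonds, and the ERO1 oxidases supply them with oxidising power. Pdia3 (Entrez Gene 29468), also called ERp57, works on glycoproteins bound by calnexin and calreticulin. Its signals were 1715, 1630.4, 1449, 1616 and 1629 on the dehydrated arrays, against 2122, 1892, 1983, 2084 and 1929 on the control arrays. All dehydrated arrays were below all control arrays, with means of 1608 ± 97.1 in dehydrated and 2002 ± 98.8 in control lobes (SD, n = 5 each). Pdia3 fell, with a ratio of dehydrated to control of 0.803, taken from the log2 change (log2 change -0.32 ± 0.07 SE, adjusted p = 0.0162, limma). The call ended without dehydrated 3 (-0.28, adjusted p = 0.0589), without control 4 (-0.30, adjusted p = 0.0513) and without an intensity trend in the variance (adjusted p = 0.0788). It also ended when the gene's probe sets were averaged (-0.14, adjusted p = 0.367).

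The other 5 genes of this group did not pass. Pdia4, also called ERp72, had signals of 380, 296, 359, 318 and 421 on the dehydrated arrays, against 407, 453, 421, 381 and 532 on the control arrays. Dehydrated 1, 2, 3 and 4 lay below every control array and dehydrated 5 within their range (log2 change -0.31 ± 0.10 SE, adjusted p = 0.142, limma). Without dehydrated 5 the change was -0.37 and passed (adjusted p = 0.0402), while in the model with the integrity ratio it was -0.19 (adjusted p = 0.412, limma). P4hb, the archetypal disulfide isomerase, had signals of 1452, 1474, 1422, 1484 and 1531 on the dehydrated arrays, against 1409, 1617, 1776, 1525 and 1794 on the control arrays. Its dehydrated arrays lay close together, within the range of the control arrays (log2 change -0.14 ± 0.07 SE, adjusted p = 0.357, limma). Ero1b, the oxidase of endocrine and other secretory cells, had signals of 241, 264, 219, 244 and 206 on the dehydrated arrays, against 223, 242, 246, 279 and 252 on the control arrays, with overlapping groups (log2 change -0.08 ± 0.09 SE, adjusted p = 0.681, limma). Pdia6 changed by 0.10 and Ero1a, the more widely expressed oxidase, by 0.08 (adjusted p = 0.705 and 0.627, limma).

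TRAP is built of 4 subunits, and they differed in their estimates. Ssr1 (Entrez Gene 361233), the alpha subunit, had signals of 591, 569, 577, 753 and 841 on the dehydrated arrays, against 875, 909, 850.3, 893 and 869 on the control arrays. No dehydrated array reached a control array, and dehydrated 1, 2 and 3 were lower than dehydrated 4 and 5. Means were 666 ± 124 in dehydrated and 879 ± 22.4 in control lobes (SD, n = 5 each). Ssr1 fell, with a ratio of dehydrated to control of 0.749, taken from the log2 change and not from these means (log2 change -0.42 ± 0.10 SE, adjusted p = 0.0335, limma). The call ended without dehydrated 1, 2 or 3 and without any 1 of the 5 control arrays (changes of -0.43 to -0.36, adjusted p = 0.0595 to 0.114). The same was seen in the model with the integrity ratio (-0.34, adjusted p = 0.104), without the filter on dim probe sets (adjusted p = 0.0726) and without an intensity trend (adjusted p = 0.113).

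Ssr4, the delta subunit, had signals of 781, 824, 841, 966 and 983 on the dehydrated arrays, against 999, 996, 1002, 1080.4 and 1123 on the control arrays. Its groups did not overlap either, and the change did not pass (log2 change -0.25 ± 0.08 SE, adjusted p = 0.103, limma). It passed without dehydrated 5 (-0.29, adjusted p = 0.0307) and with quantile normalization (-0.30, adjusted p = 0.0353). Ssr2, the beta subunit, changed by -0.24 and Ssr3, the gamma subunit, by -0.02 (adjusted p = 0.129 and 0.898, limma), and Ssr2 by -0.15 in the model with the integrity ratio. In all, the dehydrated arrays lay below the control arrays without overlap for 3 of the 41 ER genes, Pdia3, Ssr1 and Ssr4 (7.32%), beside 1.83% of all genes tested.

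The SEC61 channel and its partners did not pass. Sec61a1, the pore-forming subunit, had signals of 184, 165, 217, 213 and 291 on the dehydrated arrays, against 231, 254, 274, 242 and 294 on the control arrays. Dehydrated 5 was near the top of the control range and the other 4 were below every control array (log2 change -0.29 ± 0.12 SE, adjusted p = 0.239, limma). Without dehydrated 5 the change was -0.41 and passed (adjusted p = 0.0265), while in the model with the integrity ratio it was -0.12 (adjusted p = 0.662, limma). Sec61b, the small beta subunit, had signals of 1573, 2620.1, 1506, 1432 and 1179.7 on the dehydrated arrays, against 1354, 1622, 1526, 1853 and 1376 on the control arrays. Dehydrated 2 stood well above the other 4 arrays of its group, and the change turned to -0.12 without it (log2 change 0.06 ± 0.16 SE, adjusted p = 0.888, limma, on all arrays).

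Sec62 and Sec63, which help some chains to enter the channel, changed by 0.27 and 0.05, and Srp9 and Srp14, the subunits of the signal recognition particle that slow translation, by 0.14 and -0.02. The adjusted p of these 4 was between 0.130 and 0.883 (limma). Sec62 had the highest estimate of the 41, and 0.13 when its probe sets were averaged.

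The 4 measured signal peptidase genes split in sign and none passed (limma), with 1 higher and 2 lower at an unadjusted p under 0.05. Of all genes tested, 11.2% were higher and 7.65% lower at that threshold. Spcs1, a small accessory subunit, had signals of 3349.6, 3495, 3428, 2809 and 2682 on the dehydrated arrays, against 2758, 2558, 2633, 2803 and 2632 on the control arrays. Dehydrated 1, 2 and 3 were above every control array, dehydrated 4 was just above them, and dehydrated 5 lay among them (log2 change 0.23 ± 0.08 SE, adjusted p = 0.155, limma). Without dehydrated 5 the change was 0.28 and passed (adjusted p = 0.0263), while quantile normalization brought it to 0.03 and cyclic loess to 0.07, and neither passed (adjusted p = 0.765 and 0.498, limma). Sec11c, a catalytic subunit, had signals of 1172, 973, 1037, 1091 and 1006 on the dehydrated arrays, against 913, 1095, 1088, 1052 and 1041 on the control arrays, with overlapping groups (log2 change 0.02 ± 0.07 SE, adjusted p = 0.899, limma). Its sign turned with quantile and cyclic loess normalization, at -0.04 and -0.05. Spcs2 and Spcs3, further subunits, changed by -0.29 and -0.17 (adjusted p = 0.238 and 0.171, limma). For Spcs2 the change was -0.09 in the model with the integrity ratio (adjusted p = 0.670, limma). Spcs3 passed with quantile (-0.25, adjusted p = 0.0167) and cyclic loess normalization (-0.27, adjusted p = 0.0180).

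None of the 6 tested genes of ER-associated degradation passed, and none had an unadjusted p under 0.05 (limma), beside 18.9% of all genes tested. Herpud1, an ER stress-induced membrane protein of the degradation complex, had signals of 581, 575, 610.1, 523 and 542 on the dehydrated arrays, against 504, 592, 544, 545 and 605 on the control arrays. Its groups lay within the same range (log2 change 0.02 ± 0.07 SE, adjusted p = 0.911, limma), with an interval of -0.13 to 0.17. Sel1l, the scaffold of that complex, had signals of 59.9, 66.2, 62.8, 50.2 and 53.6 on the dehydrated arrays, against 56.1, 64.3, 56.7, 53.7 and 74.5 on the control arrays, again with overlapping groups (log2 change -0.05 ± 0.13 SE, adjusted p = 0.872, limma). Syvn1, its ubiquitin ligase HRD1, changed by -0.05, Edem1, which routes misfolded glycoproteins to it, by 0.17, and the channel proteins Derl1 and Derl2 by 0.13 and 0.06. The adjusted p of these 4 was between 0.398 and 0.859 (limma).

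**Figure D3:**
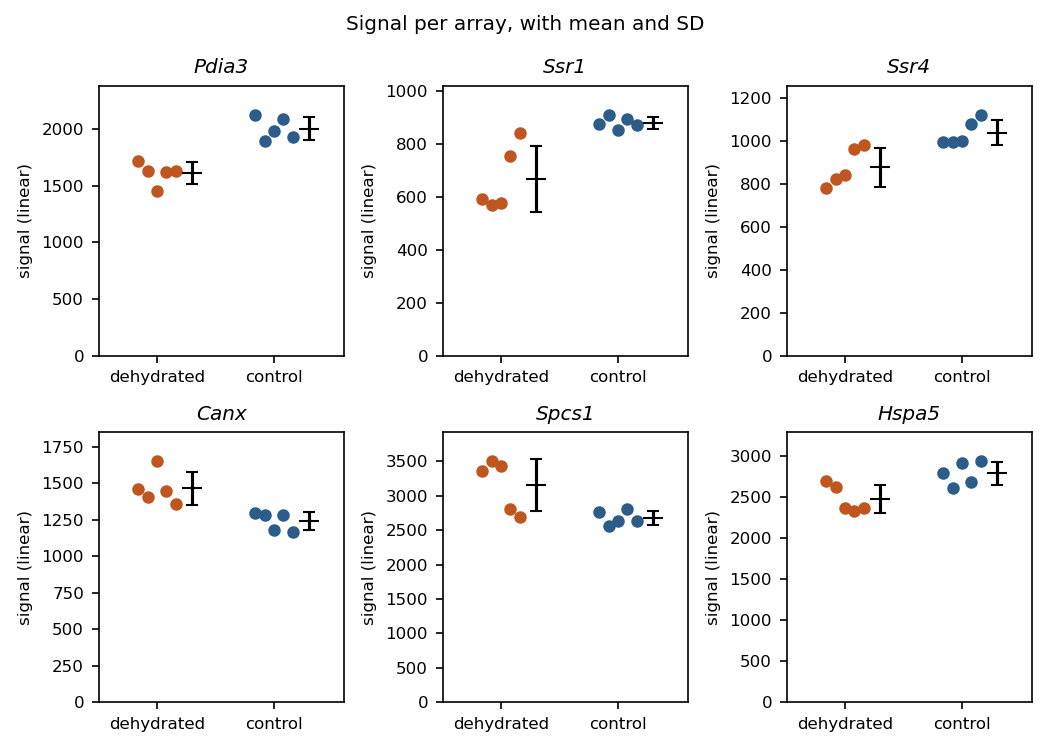
Linear signal on each array (points; the 5 dehydrated arrays left, the 5 control arrays right of them, arrays 1 to 5 from left to right within a group) with the mean and SD of each group, for the 2 ER genes that fell (Pdia3, Ssr1) and for Ssr4, Canx, Spcs1 and Hspa5, which did not pass. Dehydrated 1, 2 and 3 stand apart from dehydrated 4 and 5 for Ssr1 (569 to 591 against 753 and 841) and for Spcs1 (3349.6 to 3495 against 2809 and 2682).

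Within both groups the arrays varied over the set. The number of ER genes below their control mean was 24, 20, 21, 28 and 28 of 41 on dehydrated 1 to 5, against 23, 24, 18, 16 and 19 on control 1 to 5. Median deviations from the control mean were -0.03, 0.02, -0.03, -0.09 and -0.05 on the dehydrated arrays, against -0.02, -0.03, 0.01, 0.04 and 0.01 on the control arrays (log2 scale). By role, the chaperones had negative medians on all 5 dehydrated arrays, from -0.22 to -0.05, against -0.08 to 0.08 on the control arrays. The degradation genes had medians of -0.06 to 0.25 on the dehydrated arrays, against -0.06 to 0.08 on the control arrays. The control arrays set the zero of this scale, so these counts are a description without a test.

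**Figure D4:**
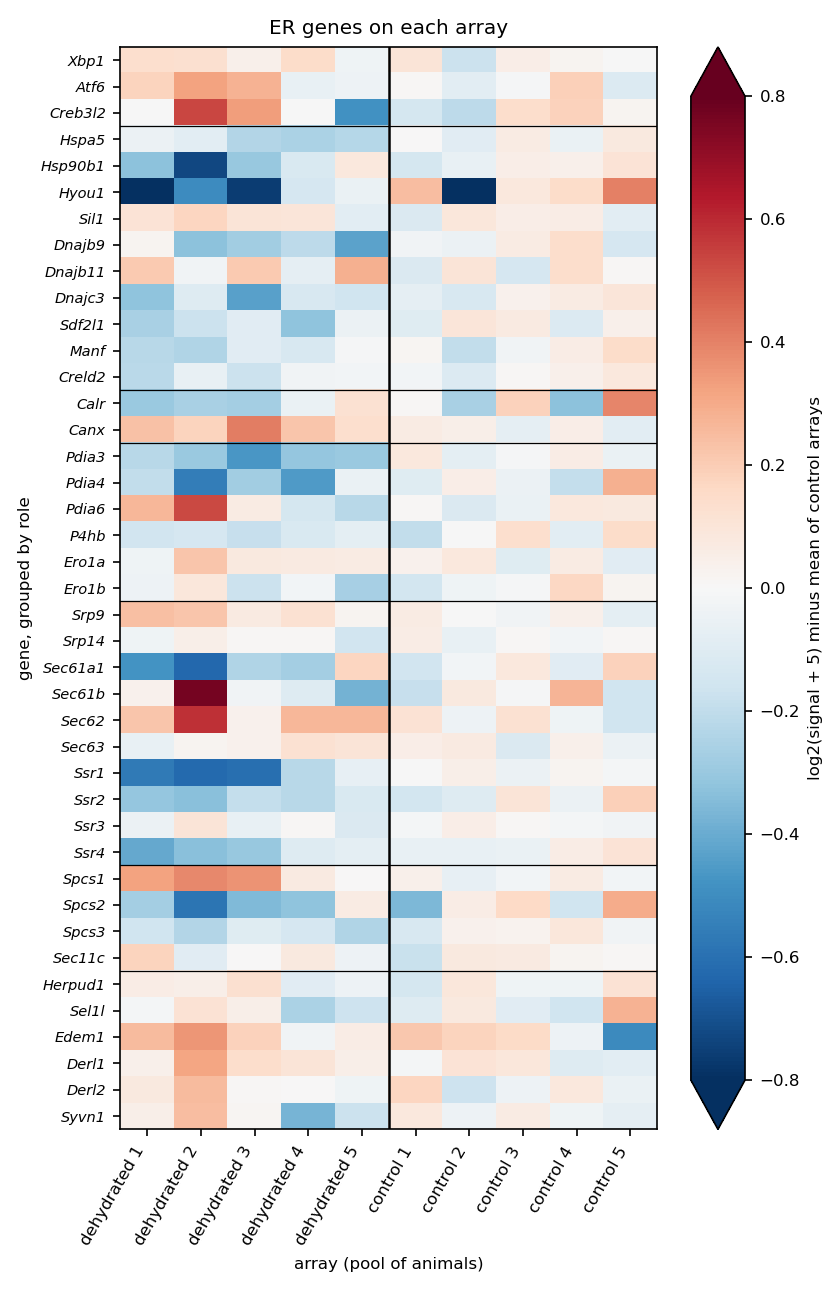
Each ER gene (rows, grouped by role with lines between roles) on each array (columns, dehydrated left of the line): log2(signal + 5) minus the gene's mean on the control arrays, red above and blue below. Ssr1, Pdia3 and Ssr4 are blue across the dehydrated arrays. So, in places faintly, are Hspa5, Hyou1, Dnajc3, Sdf2l1, Manf, Creld2, Pdia4, P4hb, Ssr2 and Spcs3. Canx is red across them, and so, in places faintly, are Srp9, Sec62, Spcs1 and Derl1. Dehydrated 2 stands out for Sec61b and Sec62. The colour scale ends at 0.8 on both sides.

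Some genes were read by more than 1 probe set, which allows a check within the same arrays. For 11 ER genes, 15 further probe sets passed the filter, and none of them was called (limma, lowest adjusted p = 0.113). Of the 15, 7 had the sign of the gene's brightest probe set and 8 the opposite sign, and 12 had the lower of the 2 values. For Canx the brightest probe set changed by 0.23 and the next by -0.26 (adjusted p = 0.113). The log2 ratio of the first to the second was 0.42 to 0.86 on the dehydrated arrays, against -0.01 to 0.36 on the control arrays, without overlap. The difference between the 2 readings was not tested, and Canx is described here after its values were seen. For no other of the 15 did this ratio separate the groups.

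Among the 2 genes that fell, the second probe set of Ssr1 changed by -0.27 (adjusted p = 0.191) and that of Pdia3 by 0.04 (adjusted p = 0.890), limma. The third Ssr3 probe set changed by -0.79 (adjusted p = 0.150), while the brightest changed by -0.02. Edem1 and Derl1 had readings on both sides of 0, 0.17 and -0.45 for Edem1, and 0.13, -0.15 and -0.11 for Derl1. Both tested readings of Sec61a1 were negative (-0.29 and -0.42), and all 3 of Sec63 were positive (0.01 to 0.07). Which part of each transcript a probe set reads was not used here.

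**Figure D5:**
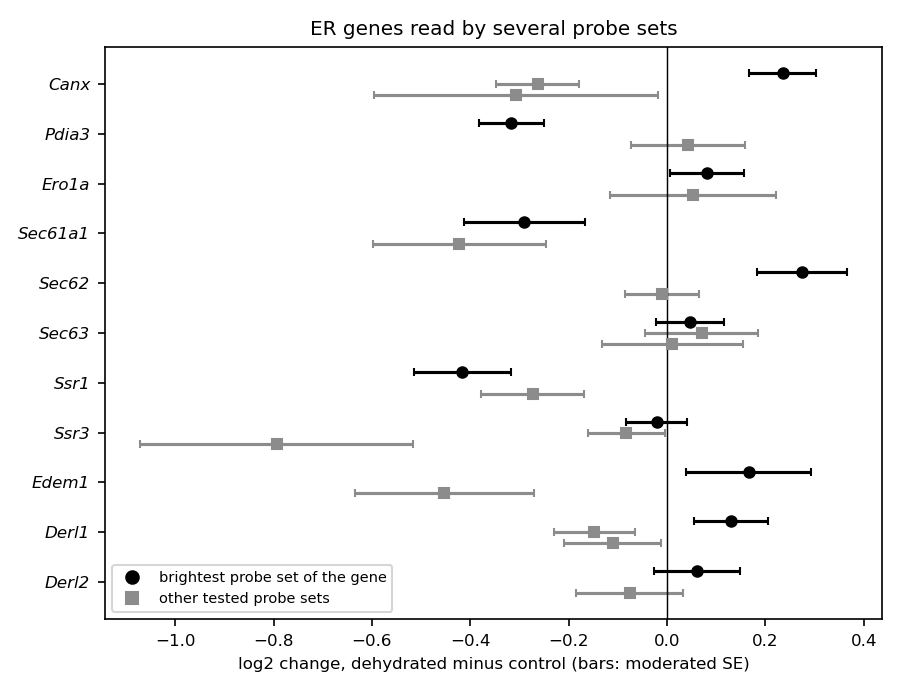
Log2 change (dehydrated minus control, with moderated standard errors, 5 arrays per group) for the 11 ER genes with several tested probe sets; circles are the brightest probe set, squares the others. The circle and the squares of Canx, Pdia3, Sec62, Edem1, Derl1 and Derl2 lie on opposite sides of 0.

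Other genes of the pathway, 127 symbols in 7 lists, some of them older names of the same gene, were described by the same counts. Of 112 tested, 1 rose (0.893%), none fell and 111 did not pass (limma). Among all genes tested 2.31% passed as higher and 0.878% as lower. At an unadjusted p under 0.05, 23 of the 112 were lower (20.5%) and 4 higher, beside 7.65% and 11.2% of all genes tested. The median log2 change of the 112 was -0.03. The gene that rose was Fkbp9, an ER prolyl isomerase, with signals of 528, 482, 517, 413 and 457 on the dehydrated arrays, against 403, 372, 374, 384 and 353 on the control arrays. Its groups did not overlap (log2 change 0.34 ± 0.08 SE, adjusted p = 0.0276, limma). In the lower direction 5 of the 112 did not overlap (4.46%), beside 1.83% of all genes tested. They were Stt3a, Erlec1, Kdelr1, Sec23b and Tmed3, named after their values were seen, with changes of -0.27 to -0.13, and none of them passed (limma). The other 28 of the 29 tested genes in its list of folding enzymes did not pass.

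Oligosaccharyltransferase attaches sugar chains to entering proteins. None of its 12 genes passed (limma, 4 lower and 1 higher at an unadjusted p under 0.05, median -0.01). The share over all genes tested, for this and the next lists, was 7.65% lower and 11.2% higher at that threshold. All 8 tested genes of glycan trimming and lectins had negative changes, from -0.34 to -0.03, and none passed (4 lower at an unadjusted p under 0.05). Of 22 genes of ER to Golgi carriers and retrieval, 17 were negative and none passed (9 lower and 1 higher at an unadjusted p under 0.05, median -0.11). None passed among 15 further genes of signal recognition and targeting (1 higher at an unadjusted p under 0.05), 14 of degradation (2 lower) and 12 stress sensors and transcription factors (2 lower). In the last list the lowest adjusted p was 0.0838, for Atf4, the translation-controlled factor of the PERK branch, whose log2 change was -0.46 (named after its value was seen).

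Of 40 tested cell type markers 14 rose, 2 fell and 24 did not pass (limma). Among all genes tested 2.31% passed as higher and 0.878% as lower. The part of the markers in the values above was not tested. The summed signal of 5 measured of 7 melanotroph markers was 4341 to 4937 on the dehydrated arrays, against 5143 to 5886 on the control arrays. Within that list Pcsk2, a prohormone convertase, fell (-0.88), while Scg2 (-0.30), Pomc (-0.09), Drd2 (-0.08) and Tbx19 (-0.01) did not pass. The groups did not overlap for Pcsk2 and Scg2 and overlapped for Pomc, Drd2 and Tbx19. Mean signals in dehydrated and control lobes were 391 and 715 for Pcsk2, and 1725 and 2123 for Scg2. Pcsk1 and Pax7 were not analysed here. The 7 pituicyte and astroglia markers summed to 4649.9 to 5165 on the dehydrated arrays, against 3847 to 4335 on the control arrays. Of these 7, Gfap (2.38), Lhx2 (0.39) and Slc1a3 (0.36) rose and 4 did not pass (limma), with Rax at -0.19 and S100b at -0.21. For 6 measured of 7 endothelial and mural markers the sum was 1149.7 to 1429 on the dehydrated arrays, against 724 to 959 on the control arrays, and for 7 fibroblast markers 8421 to 10884 on the dehydrated arrays, against 5759.6 to 6407 on the control arrays. These sums, which follow their brightest members, did not overlap between the groups. Of the endothelial and mural markers 4 of 6 rose, and of the fibroblast markers 4 of 7, while none in either list fell (limma). Both hypothalamic axon transcripts, Avp and Oxt, rose (limma), with sums of 3314 to 4552 on the dehydrated arrays, against 1849.6 to 2037 on the control arrays. The sum of 7 anterior lobe markers, 4825 to 9396 on the dehydrated and 2576 to 7963 on the control arrays, overlapped, while Fshb of that list fell (-0.86, adjusted p = 0.00507, limma) and none of its other 5 tested markers passed. The sum of 7 immune markers overlapped too, 1500.2 to 2217 on the dehydrated and 1726 to 2166 on the control arrays, while Aif1 rose (0.42, adjusted p = 0.0375, limma) and 6 did not pass, among them Cd68 at -0.74. No measured marker was at 0 on any array.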

How the data were processed

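The deposited table holds linear intensity values made by the authors, 1 for each probe set on each of the 10 arrays, from Affymetrix Rat Genome 230 arrays of version 2.0. Software GCOS 1.2 appears in the submitters' processing notes. Its algorithm, settings and scaling target are not given in the sources used here. The trimmed mean, with 2% of probe sets taken off at each end, was 100.0 on every array, so no further scaling was applied. Detection calls were not used, and signal over background is unknown. Labels give no pairing, batch or replicate numbers, and arrays were numbered in deposition order as names. Sample titles carry numbers in a separate run for each group, and what these numbers stand for is not given. Any difference in handling between the runs could not be told apart from dehydration.

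Of 31099 probe sets, 57 controls were left out. The 60% brightest of the other 31042 by mean log2(signal + 5) were tested, 18625 in number, of which the brightest with 1 symbol (platform annotation, checked against RefSeq gene IDs, 0 changed) stood for each of 10593 genes. The test was that of limma 3.58.1, run under R 4.3.3 (lmFit, eBayes with an intensity trend, two-sided, Benjamini-Hochberg over all tested probe sets). The pseudocount of 5 understates changes of dim genes. Intervals are 95% and moderated. The 3' to 5' ratio was compared by an exact permutation test over 252 splits of the arrays. The text names called members, 20 members listed by name and called genes of the other pathway lists; further members, Canx among them, Atf4 and other genes so marked were named after their values were seen. Members, lists, elements and alternatives were chosen with earlier results of these data known. Promoter windows are RefSeq's, assembly GRCr8. The steps were tested on simulated data. Alternatives changed normalization, pseudocount, filter, variance model, integrity covariate, arrays and probe sets per gene.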

Additional observations from a re-analysis of the deposited data

Results flagged for a closer look

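Among the 84 groups of 5 arrays checked, 1 array lay apart from the other 4 of its group in 2, where chance gives about 1 in 20 groups. Control 2 had a Hyou1 signal of 62, against 126 to 158 on the other control arrays (gap to range 0.750 on the log2 scale). Control 1 had a Sec11c signal of 913, against 1041 to 1095 on the other control arrays (gap to range 0.720). Without control 2 the change of Hyou1 was -0.71, and without control 1 that of Sec11c was -0.02, and neither passed.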

How the results depend on the processing

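The 458 called probe sets became 240 without an intensity trend, 730 with array quality weights, 1398 without dehydrated 5 and control 1, and 218 to 1156 when 1 array was left out. Of the ER genes, 2 lower calls became 5 with quantile and 4 with cyclic loess normalization, 1 without the filter, in the model with the integrity ratio or with probe sets averaged, 0 without an intensity trend, 8 without dehydrated 5 and control 1, and 0 to 6 with 1 array left out. The 0 higher calls became 1 with array quality weights, 2 without dehydrated 5 and control 1, and 0 to 2 with 1 array left out. Their median change of -0.05 was -0.0037 without dehydrated 5 and control 1, -0.10 with probe sets averaged and -0.11 to -0.015 with 1 array left out. The group difference in the 3' to 5' ratio of 0.37 was 0.69 without dehydrated 5 and control 1, a difference that the choice of these arrays by their ratio sets in part.

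Of 942 values of single ER genes under 23 alternatives, 29 had the opposite sign, all for genes that did not pass and still did not (limma adjusted p at least 0.569). With quantile normalization Pdia6 was at -0.025, Sec61b at -0.058 and Sec11c at -0.039, and with cyclic loess at -0.028, -0.045 and -0.046 in that order of genes. With array quality weights Sec61b was at -0.010. In the model with the integrity ratio Creb3l2 was at -0.029, Pdia6 at -0.011, Sec61b at -0.089 and Derl2 at -0.026. Without dehydrated 5 and control 1, Srp14 was at 0.022, Sec11c at -0.0037 and Syvn1 at 0.0053. With probe sets averaged Canx was at -0.11, Edem1 at -0.14, Derl1 at -0.043 and Derl2 at -0.0075. With 1 array left out the ranges were -0.036 to 0.22 for Creb3l2, -0.0076 to 0.18 for Pdia6, -0.12 to 0.17 for Sec61b, -0.020 to 0.053 for Sec11c, -0.014 to 0.052 for Herpud1, -0.12 to 0.034 for Syvn1, -0.041 to 0.0074 for Srp14, -0.053 to 0.0024 for Ssr3 and -0.096 to 0.016 for Sel1l. The cause was not tested for any of these. No paired analysis was possible because the labels give no replicate numbers. The number of arrays limits the precision.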
